A study of Mus musculus with 21 samples.

Results

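Integrins are the receptors by which cells hold on to the extracellular matrix, and the focal adhesion linkers are the cytoplasmic proteins that tie them to actin. Of the 48321 gene symbols counted in every sample, 37 were taken by name as this group. They comprise 12 alpha subunits (Itga1 to Itga11 and Itgav), 8 beta subunits (Itgb1 to Itgb8), the talins Tln1 and Tln2 and the kindlins Fermt1, Fermt2 and Fermt3. The signalling and scaffold genes Pxn, Ptk2, Ilk, Parva and Parvb and the actin linkers Vcl, Zyx, Tns1, Tns3, Flna, Actn1 and Actn4 complete the list. All 37 were found, 32 of them had counts in every one of the 21 samples, and 32 passed the filter on low counts and were tested.

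An integrin is a pair of an alpha and a beta subunit, and the pair sets which matrix protein is bound. Alpha5 with beta1 is the classical fibronectin receptor, alpha6 subunits bind laminin, alpha1 with beta1 binds collagen, and the alphav subunit pairs with several beta subunits to bind RGD sites in vitronectin and fibronectin. Talin and kindlin bind the beta tail and switch the pair to its active state. The ILK and parvin complex, paxillin and the kinase FAK (Ptk2) then collect at the site, and vinculin, alpha-actinins, zyxin, tensins and filamin join it to actin. In the early embryo these receptors hold the epiblast on its basement membrane and serve the migration of new mesoderm. TWIST1, a basic helix-loop-helix factor that acts as a dimer, is known as a driver of mesenchymal fate.

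RNA came from whole embryoid bodies, which are clumps of mouse embryonic stem cells left to differentiate, on day 3, with 3 samples in each of 7 groups. All are labelled strain C57BL/6 and derive from A2loxCre cells, in which a coding sequence sits behind a doxycycline-inducible promoter. The 7 groups were the parental A2loxCre line with doxycycline, the line with integrated Twist1 monomer without doxycycline, and 5 lines with doxycycline for 16 h. Those 5 carried the Twist1 monomer, the Twist1 homodimer, or a Twist1-Tcf3, Twist1-Tcf4 or Twist1-Tcf12 dimer. Whether a line is 1 clone and whether samples of a group came from separate cultures is not given in the sources used here, so p-values measure the spread between these samples, which may be technical. The induced and uninduced monomer samples differ in doxycycline itself as well as in construct expression, and these cannot be told apart. The parental and uninduced groups differ in both line and doxycycline. No dimer line has uninduced samples, so the dimer and its line cannot be told apart in any comparison of these groups.

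Library totals ran from 6648842 to 15999693 counts, so 3 counts correspond to 0.188 to 0.451 CPM (the count scaled to a fixed library total), a floor that covers counting error only. Markers of pluripotent and epiblast cells were present in all groups, with a summed level of 4532 to 4633 CPM in parental samples and 2256 to 2623 CPM in the set labelled TCF3 dimer. Twist1 rose in each induced line, from a mean of 8.1 CPM in parental samples to between 39.4 CPM (TCF4 dimer) and 612 CPM (monomer). Tcf4 was at 329.9 CPM in TCF4 dimer samples against 47.5 CPM in parental samples. Tcf3 stood at 154 CPM in the set labelled TCF3 dimer against 167 CPM in parental samples, and Tcf12 at 104 CPM in those libraries and 92.9 CPM in the ones labelled TCF12 dimer. The partner genes therefore do not separate these sets, which are called by their labels. Sample 1 labelled TCF12 dimer stood apart from its group. Its deviation from the mean of the other 2 samples fell with exon length across genes (Spearman rho -0.576). The same measure gave rho between -0.26 and 0.281 in the 18 samples of the other groups. It gave 0.498 and 0.541 in samples 2 and 3 labelled TCF12 dimer, whose reference includes sample 1. Of the 32 tested members, 24 were lower in sample 1 than the mean of samples 2 and 3. The median log2 difference was -0.375 (-0.0233 over all tested genes).

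**Figure D1:**
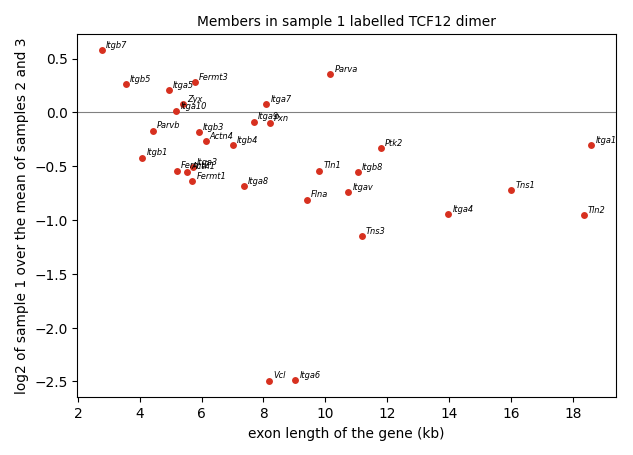
Each point is 1 of the 32 tested genes. The x axis is exon length in kb and the y axis the log2 ratio of sample 1 labelled TCF12 dimer to the mean of samples 2 and 3. Vcl and Itga6 lie lowest, at about -2.49, and Itgb7 highest, at 0.578.

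The largest departures were in vinculin and the laminin receptor subunit alpha6. Vcl stood at 11.5, 58.7 and 75.8 CPM in samples 1 to 3 of that group and Itga6 at 13.4, 69.4 and 85.5 CPM, whereas all other groups were tight for both genes. The common biological coefficient of variation was 0.12 with that sample and 0.0539 without it. Results are therefore given for all 21 samples, and counts also for the 20 samples without it.

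Levels were compared between genes as RPKM, which divides by exon length. Itgb1, the beta subunit shared by most matrix receptors, led the group with a median of 89.9 RPKM over the 21 samples, ahead of Actn4 (81.6), Flna (64.2) and Actn1 (47.5). Among beta genes it made up between 80.8% and 85.6% of the summed RPKM in every group, and Itgb5 between 10.5% and 16.9%. Among alpha genes Itga5 and Itga6 led. Itga5 held 30% ± 1.84 of the summed alpha RPKM in parental samples (SD, n = 3) and 34.8% ± 1.59 was Itga6. In the uninduced and induced monomer lines the Itga5 share was 48.2% ± 1.48 and 48.1% ± 1.04. In the homodimer line Itga6 led with 38.6% ± 2.34 against 34.7% ± 2.71 for Itga5.

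**Figure D2:**
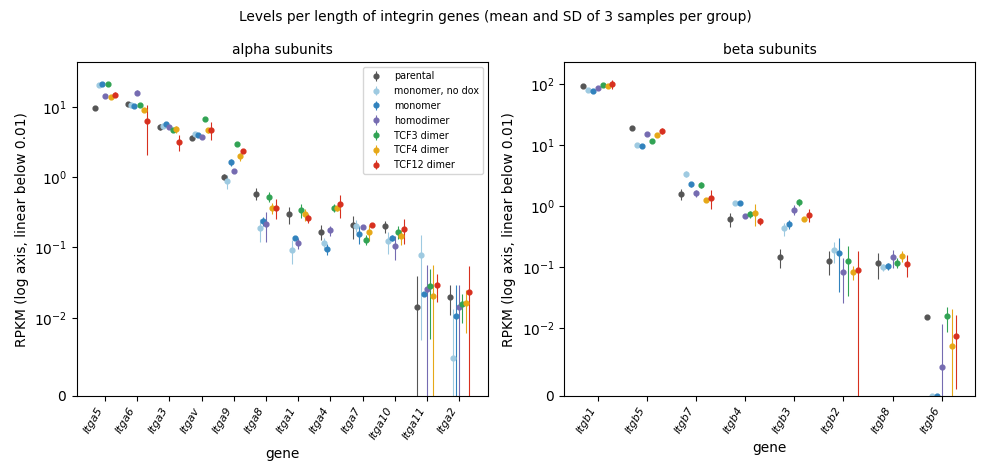
Mean RPKM (log axis, linear below 0.01) with SD of 3 samples for each alpha (left) and beta (right) subunit gene, coloured by group and ordered by median. Itgb1 and Itgb5 exceed the other beta genes in every group, and Itgb3 is lowest in parental samples (0.148 ± 0.0502 RPKM).

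Itga2, Itga11, Itgb2 and Itgb6 were near the counting floor and were not tested. Ilk had 0 or 1 count per sample. Ilk's exons share 89.7% of their 2744 bases with exons of Rrp8 and Taf10 on the opposite strand, and the strand setting of the counting is not given in the sources used here, so its level cannot be read from these tables. Gene positions below are those of GENCODE M21 on GRCm38. Vcl shares 25.5% of its exon bases with Ap3m1 exons and Itga10 33.5% with Gm42957 exons, so reads could be split there too.

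Across the 7 groups, 24 of the 32 tested members differed, where 50.7% of all 14311 tested genes did (edgeR, 6 degrees of freedom, adjusted p under 0.05). Without sample 1 labelled TCF12 dimer the count was 28 members and 73.4% of genes. The roles were drawn up with earlier results of these data known, so the split by role only describes the list. With 21 samples the 24 were, by role, 5 of 5 subunits of the RGD, alpha4 and alpha9 type, 2 of 5 collagen or laminin receptor alpha subunits and 5 of 6 beta subunits. Of the cytoplasmic genes they were 2 of 5 talins and kindlins, 4 of 4 of the parvin, paxillin and FAK group, and 6 of 7 actin linkers. The actin linker that did not pass was Vcl, vinculin, which binds talin and actin (adjusted p 0.54, and 1.2e-06 with 20 samples). With 20 samples Itga6, Tln1, Tln2 and Vcl passed in addition.

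**Figure D3:**
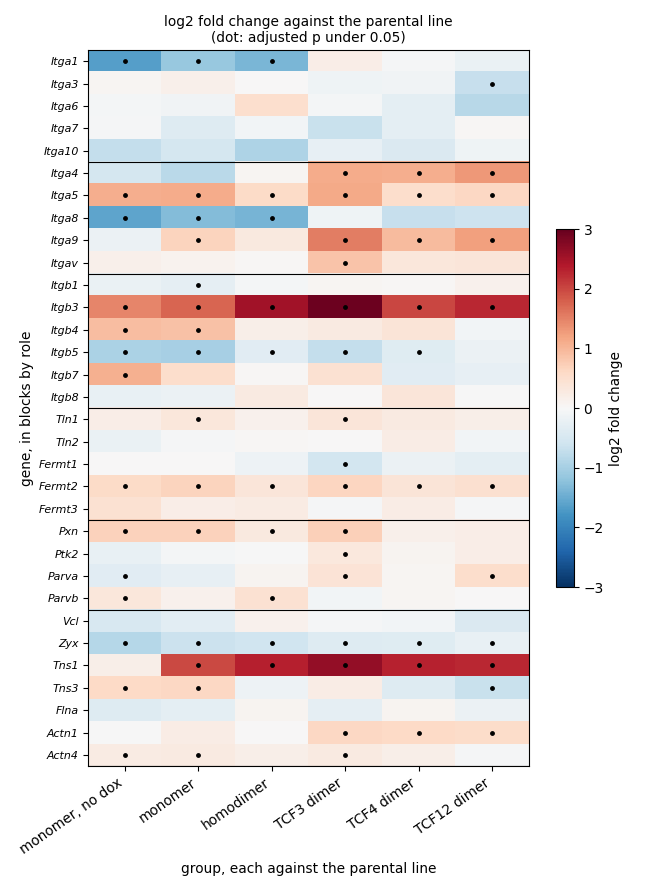
Log2 fold change of the 32 tested genes (rows, in blocks by role) in 6 groups (columns) against parental samples, red for higher and blue for lower. A dot marks an adjusted p under 0.05. Itgb3 and Fermt2 are higher and Zyx is lower with a dot in every column, and Tns1 is higher with a dot in every column but uninduced monomer samples.

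The same 3 parental samples serve as the reference in each of the 6 comparisons that follow. Each count with 21 samples, or without sample 1 labelled TCF12 dimer, is set beside the share of all tested genes that passed. Member counts from other fits, here and below, come without that share and show only how far calls depend on the fit. A value followed by an SE is a log2 fold change, here and below, and a positive value means higher than the reference. Among uninduced monomer samples 9 members were higher and 5 lower (19.9% of all genes, 10.5% higher and 9.43% lower). After induction of the monomer 10 were higher and 5 lower (20% of all genes, 10.8% higher and 9.22% lower), and with the homodimer 6 and 4 (8.84% of all genes, 4.81% higher and 4.02% lower). The set labelled TCF3 dimer had 13 higher and 3 lower (28.3% of all genes, 16.3% higher and 12% lower), TCF4 dimer samples 7 and 2 (12.9% of all genes, 7.18% higher and 5.67% lower), and the set labelled TCF12 dimer 8 and 3 (27% of all genes, 15.5% higher and 11.5% lower). Leaving out sample 1 labelled TCF12 dimer raised the counts and the background together. The members then stood at 10 and 10 for the uninduced monomer (36.8% of all genes, 18.7% higher and 18.1% lower), 12 and 9 for the induced monomer (35.2% of all genes, 18.1% higher and 17.1% lower) and 8 and 4 for the homodimer (20.4% of all genes, 10.6% higher and 9.84% lower). They stood at 15 and 4 for the TCF3 label (46.5% of all genes, 24% higher and 22.4% lower), 11 and 5 for the TCF4 dimer (28.1% of all genes, 14.5% higher and 13.5% lower) and 12 and 5 for the TCF12 label (30.3% of all genes, 15.7% higher and 14.6% lower). Without parental sample 2, uninduced monomer samples had 5 higher and 4 lower, and with library size alone as the scale they had 6 and 5. The median log2 fold change of the members lay furthest from 0 in the set labelled TCF3 dimer, at 0.21, where that of all tested genes was 0.01.

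Promoter sequence is shown for members that passed as higher against parental samples in every set labelled as a heterodimer, a choice made from their values, because basic helix-loop-helix dimers bind the E-box, CANNTG. The 250 bases before the RefSeq start (GRCm38.p6) are printed 5′ to 3′ on the gene's strand (minus for Tns1, Actn1 and Itga5, plus for Itga4), with CANNTG in capitals. Windows were kept where that start lies from 200 bases before to 30 bases after the GENCODE gene start, which left Tns1 (chr1:74124549-74124798), Itga4 (chr2:79255176-79255425), Actn1 (chr12:80260364-80260613) and Itga5 (chr15:103366792-103367041).
Tns1: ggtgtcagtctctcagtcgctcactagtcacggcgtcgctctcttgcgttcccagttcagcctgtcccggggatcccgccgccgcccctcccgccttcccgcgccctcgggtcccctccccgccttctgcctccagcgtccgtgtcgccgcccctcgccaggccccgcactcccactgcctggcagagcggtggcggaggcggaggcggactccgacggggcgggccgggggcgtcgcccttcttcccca
Itga4: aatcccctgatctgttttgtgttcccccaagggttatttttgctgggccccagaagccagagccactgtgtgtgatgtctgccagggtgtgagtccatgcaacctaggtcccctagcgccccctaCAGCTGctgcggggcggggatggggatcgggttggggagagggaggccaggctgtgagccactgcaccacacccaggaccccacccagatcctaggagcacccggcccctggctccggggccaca
Actn1: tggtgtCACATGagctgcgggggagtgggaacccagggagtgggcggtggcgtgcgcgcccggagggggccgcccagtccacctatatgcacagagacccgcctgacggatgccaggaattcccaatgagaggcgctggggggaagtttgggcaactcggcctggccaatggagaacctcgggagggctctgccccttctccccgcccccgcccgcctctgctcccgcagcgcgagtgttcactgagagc
Itga5: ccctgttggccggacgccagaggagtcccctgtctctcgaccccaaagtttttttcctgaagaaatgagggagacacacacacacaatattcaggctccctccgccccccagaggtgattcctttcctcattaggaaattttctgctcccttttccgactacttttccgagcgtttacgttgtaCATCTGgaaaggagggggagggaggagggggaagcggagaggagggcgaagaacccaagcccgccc

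The Itga4 window holds CAGCTG at -125 to -120, that of Actn1 CACATG at -244 to -239 and that of Itga5 CATCTG at -66 to -61, counted back from the start. The Tns1 window holds no CANNTG. A match on either strand was present in 21 of the 31 windows of the 28 matched members (67.7%) and in 66.2% of 32851 windows of all genes. A pair of CANNTG motifs with exactly 5 bases between them, which counts among the matches above, was in 0 of the 31 and in 0.639% of all. The CArG box, bound by serum response factor, was in 3 of 31 (Itgb6, Vcl and Fermt2) and in 1.47% of all. These are descriptions of letters, not of binding, and cover only these 250 bases.

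The alpha genes placed in the RGD, alpha4 and alpha9 role are described first, a role drawn up with earlier results known. Itga9 (chr9:118606690-118901003, plus strand), whose product binds tenascin and osteopontin, stood at 7.73, 7.04 and 8.46 CPM in the parental samples and at 6.01, 8.56 and 5.75 CPM in uninduced monomer samples. It stood at 14.1, 11 and 12.1 CPM in induced monomer samples and at 9.16, 9.41 and 9.76 CPM in the homodimer line. The set labelled TCF3 dimer had 22.2, 23.4 and 21.6 CPM, TCF4 dimer samples 15.6, 16.7 and 12.9 CPM and the set labelled TCF12 dimer 17.4, 17.8 and 19.3 CPM. All 9 heterodimer samples were above all homodimer and parental samples, and all induced monomer samples were above all uninduced ones. Itga9 rose in induced monomer samples (log2 fold change against parental 0.68 ± 0.14 SE, adjusted p 0.0017) and further in the set labelled TCF3 dimer (1.53 ± 0.13 SE, adjusted p 6.5e-08). In the homodimer line its log2 fold change was 0.28 ± 0.14 SE, adjusted p 0.3.

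Itga4 (chr2:79255426-79333123, plus strand), which encodes the receptor subunit for VCAM1 and an alternatively spliced part of fibronectin, was rare. Its CPM was 2.5, 2.81 and 1.71 in parental samples, 1.46, 1.36 and 1.95 in the uninduced and 1.25, 1.12 and 1.61 in induced monomer samples, and 2.8, 2.42 and 2.06 in the homodimer line. The set labelled TCF3 dimer stood at 5.7, 4.32 and 5.2 CPM, TCF4 dimer samples at 4.87, 5.47 and 4.62 CPM and those labelled TCF12 dimer at 3.35, 7.05 and 6.77 CPM. All heterodimer samples exceeded all samples of the other 4 groups. Itga4 rose against parental samples by 1.12 ± 0.25 SE, 1.09 ± 0.25 SE and 1.31 ± 0.25 SE on the log2 scale in these 3 sets. The largest of the 3 adjusted p was 0.0055, and fitted on only the 2 groups compared, the call in the set labelled TCF12 dimer was lost. With 20 samples Itga4 also passed as lower in induced monomer samples (-0.81 ± 0.27 SE, adjusted p 0.018).

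Itga5 (chr15:103344286-103366763, minus strand), the fibronectin receptor subunit, was higher in every line with an integrated construct, including the line that was not induced. The parental samples stood at 50.8, 46.5 and 44.5 CPM, uninduced monomer samples at 99.3, 104 and 96 CPM and induced monomer samples at 95.7, 104 and 108 CPM. At 102, 105 and 104 CPM the set labelled TCF3 dimer stood within the joint span of the 2 monomer groups. Intermediate values were found in the homodimer line (68.1, 75.4 and 67.1 CPM), TCF4 dimer samples (68.4, 64.8 and 70.3 CPM) and the set labelled TCF12 dimer (80.4, 70.3 and 69 CPM). No sample of these overlapped the parental samples. The log2 fold change was 1.08 ± 0.08 SE, adjusted p 1e-08 in uninduced monomer samples and 1.13 ± 0.08 SE, adjusted p 2.6e-09 in the set labelled TCF3 dimer.

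Itgav, the alphav subunit, passed against parental samples in the set labelled TCF3 dimer (74, 67.3 and 71.8 CPM against 40.2, 35.7 and 41.6 CPM, a log2 fold change of 0.86 ± 0.14 SE, adjusted p 8.3e-05). In TCF4 dimer samples the value was 0.33 ± 0.14 SE, adjusted p 0.13, and 0.33 ± 0.07 SE, adjusted p 0.00053 with 20 samples. It was, in the set labelled TCF12 dimer, 0.37 ± 0.14 SE, adjusted p 0.053, and without sample 1 of that set 0.57 ± 0.08 SE, adjusted p 5.5e-07. Itga8, a receptor subunit for nephronectin, moved the other way. It fell from 3.81, 5.2 and 3.83 CPM in the parental samples to 1.14, 1.04 and 1.95 CPM in uninduced monomer samples, 1.71, 2.02 and 1.5 CPM in induced monomer samples and 0.754, 2.06 and 1.95 CPM in the homodimer line. None of these 9 samples reached the lowest parental sample. TCF4 dimer samples at 3.06, 2.82 and 2.13 CPM and the set labelled TCF12 dimer at 1.78, 3.52 and 2.82 CPM were also below it, and did not pass with 21 samples. With 20 samples the fall in TCF4 dimer samples passed (-0.70 ± 0.23 SE, adjusted p 0.021), and the value in the set labelled TCF12 dimer was -0.43 ± 0.25 SE, adjusted p 0.2. The set labelled TCF3 dimer overlapped the parental range at 4.54, 3.35 and 3.74 CPM.

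Among the collagen and laminin receptor genes, Itga1 was low in both monomer groups and the homodimer line. Its CPM was 3.92, 6.82 and 5.84 in parental samples, 1.46, 1.25 and 2.44 in uninduced monomer samples, 2.61, 2.47 and 2.47 in induced monomer samples and 2.37, 1.7 and 2.36 in the homodimer line. The heterodimer sets overlapped the parental range, at 6.77, 4.76 and 7.55 CPM in the set labelled TCF3 dimer, 5.5, 6.49 and 4.37 CPM in TCF4 dimer samples and 4.09, 5.57 and 4.76 CPM in the set labelled TCF12 dimer. Itga1 fell in the uninduced monomer (-1.65 ± 0.28 SE, adjusted p 0.00029), induced monomer (-1.13 ± 0.26 SE, adjusted p 0.0036) and homodimer lines (-1.37 ± 0.26 SE, adjusted p 0.0016). Itga3, a laminin receptor subunit, passed in 1 of the 6 comparisons with parental samples, that of the set labelled TCF12 dimer (-0.68 ± 0.14 SE, adjusted p 0.0012), at 14, 17.4 and 23.1 CPM against 28.3, 32.4 and 27.2 CPM. Fitted on these 2 groups alone it did not pass. Itga6 did not pass in any of the 6 with 21 samples, at 157, 132 and 139.8 CPM in the homodimer line against 96.3, 101 and 104 CPM in parental samples (0.51 ± 0.33 SE, adjusted p 0.46). With 20 samples that value was 0.51 ± 0.07 SE, adjusted p 9.8e-07, and Itga6 also passed as lower in TCF4 dimer samples (-0.30 ± 0.07 SE, adjusted p 0.0014) and the set labelled TCF12 dimer (-0.37 ± 0.08 SE, adjusted p 0.00047). Itga7 and Itga10 did not pass in any of the 6 comparisons with 21 samples.

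Itgb3 had the largest log2 fold change of the group against parental samples, from a low level. The gene (chr11:104608000-104670476, plus strand), whose product partners alphav in the vitronectin receptor, stood at 0.762, 0.65 and 1.21 CPM in the parental samples, which is 6 counts or more per sample. It was at 3.25, 2.09 and 2.24 CPM in the uninduced and 2.39, 3.15 and 3.43 CPM in induced monomer samples, 6.14, 4.84 and 4.42 CPM in the homodimer line and 7.59, 5.82 and 7.15 CPM in the set labelled TCF3 dimer. TCF4 dimer samples had 3.3, 3.67 and 3.77 CPM and the set labelled TCF12 dimer 3.88, 5.41 and 3.55 CPM. Every sample of the other 6 groups was above every parental sample. Itgb3 rose by 1.46 ± 0.31 SE, 1.75 ± 0.29 SE, 2.52 ± 0.27 SE, 2.95 ± 0.25 SE, 2.01 ± 0.27 SE and 2.27 ± 0.27 SE on the log2 scale, listed as above. The largest of these adjusted p was 0.0018.

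Itgb5 (chr16:33829665-33949338, plus strand), another alphav partner, went the opposite way and from a much higher level. The parental samples stood at 67.6, 68.2 and 68.9 CPM, uninduced monomer samples at 35.8, 34.6 and 36.4 CPM and induced monomer samples at 33.8, 36.6 and 32.4 CPM. The set labelled TCF3 dimer had 41.4, 40.1 and 42.5 CPM, the homodimer line 53.5, 52.3 and 55.1 CPM and TCF4 dimer samples 51.6, 49.7 and 57.2 CPM, all under the lowest parental sample. In the set labelled TCF12 dimer it was at 67.6, 56.1 and 56.5 CPM, sample 1 near the parental level, and did not pass with 21 samples (log2 fold change -0.19 ± 0.08 SE, adjusted p 0.081). Without sample 1 it passed as lower (-0.28 ± 0.06 SE, adjusted p 0.0012). The log2 fold change was -0.99 ± 0.08 SE, adjusted p 3.2e-08 in induced monomer samples. The Itgb5 call in the homodimer line was lost with no filter on low counts.

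Itgb4, the alpha6 partner of hemidesmosomes, passed as higher in the uninduced (0.92 ± 0.23 SE, adjusted p 0.0071) and induced (0.89 ± 0.23 SE, adjusted p 0.008) monomer lines, at 7.96, 7.41 and 8.58 and 7.5, 8.09 and 7.94 CPM against 5.12, 3.03 and 4.54 CPM. Neither call held without parental sample 2, the lowest of the parental group. Itgb7, a leukocyte beta subunit, rose in uninduced monomer samples, the 1 comparison of the 6 it passed with 21 samples, at 10.2, 9.4 and 8.29 CPM against 4.03, 3.79 and 5.44 CPM (1.06 ± 0.20 SE, adjusted p 0.00062). With 20 samples it was also higher in induced monomer samples (0.51 ± 0.18 SE, adjusted p 0.026) and the set labelled TCF3 dimer (0.45 ± 0.17 SE, adjusted p 0.034). Markers of mature blood cells, 6 genes, summed to 12.5 to 14.5 CPM in that line and 4.94 to 5.44 CPM in parental samples, with none at 0 throughout, and their part in the Itgb7 result was not tested. Itgb1 went from 369.5, 389 and 367 CPM in the parental samples to 294, 324 and 312 CPM in induced monomer samples (-0.27 ± 0.09 SE, adjusted p 0.034), a call lost when any parental sample was left out. With 20 samples Itgb1 passed as lower in uninduced monomer samples too (-0.21 ± 0.05 SE, adjusted p 0.0013) and as higher in the set labelled TCF12 dimer (0.25 ± 0.05 SE, adjusted p 0.00058). Itgb8 did not pass in any comparison of the 6.

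Of the genes that switch integrins to their active state, Fermt2 (kindlin-2, chr14:45458795-45530118, minus strand) was called most often. Its CPM was 77.8, 80.2 and 87.5 in the parental samples, 119.9, 123 and 121 in the uninduced and 129.6, 131 and 130.0 in induced monomer samples, 102, 107 and 109 in the homodimer line and 137, 123 and 126 in the set labelled TCF3 dimer. TCF4 dimer samples had 113, 108 and 102 CPM. In the set labelled TCF12 dimer samples 2 and 3 were high and sample 1 was at the parental level (87.2, 130.0 and 124 CPM). Fermt2 rose in uninduced monomer samples (0.57 ± 0.11 SE, adjusted p 0.00063) and the set labelled TCF3 dimer (0.65 ± 0.10 SE, adjusted p 8.8e-05). The smaller rises in the homodimer (0.37 ± 0.10 SE, adjusted p 0.03) and TCF4 dimer lines (0.40 ± 0.10 SE, adjusted p 0.015) were lost with library size alone as the scale and without parental sample 1 or 2. Fermt1, the kindlin of epithelia, fell in the set labelled TCF3 dimer (-0.55 ± 0.16 SE, adjusted p 0.013), a call lost without sample 1 of that set.

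Tln1, the main talin, was at 100.4, 115 and 115 CPM in the parental samples and 140.3, 142 and 142 CPM in the set labelled TCF3 dimer (0.36 ± 0.11 SE, adjusted p 0.023). Its call there and in induced monomer samples (0.34 ± 0.11 SE, adjusted p 0.04) was lost with library size alone as the scale and without parental sample 1. With 20 samples Tln1 also passed as higher in uninduced monomer samples (0.19 ± 0.06 SE, adjusted p 0.024), TCF4 dimer samples (0.26 ± 0.06 SE, adjusted p 0.0018) and the set labelled TCF12 dimer (0.32 ± 0.07 SE, adjusted p 0.00063). Tln2 and the blood-cell kindlin gene Fermt3 did not pass in any of the 6 with 21 samples. With 20 samples Tln2 passed as lower in uninduced monomer samples (-0.19 ± 0.07 SE, adjusted p 0.032) and higher in TCF4 dimer samples (0.22 ± 0.07 SE, adjusted p 0.013).

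Pxn (chr5:115506676-115555987, plus strand) encodes paxillin, an adaptor that docks FAK and other signalling proteins at adhesions. It was at 32.9, 31.7 and 30.9 CPM in the parental samples, 54.4, 51.8 and 48.4 CPM in uninduced monomer samples, 57.9, 47.8 and 49.7 CPM in induced monomer samples and 54.7, 51.2 and 50.3 CPM in the set labelled TCF3 dimer. In the homodimer line it was at 43.6, 39.4 and 34.5 CPM, in TCF4 dimer samples at 34.2, 34.4 and 37.2 CPM and in the set labelled TCF12 dimer at 34.6, 37.7 and 36.7 CPM. The 2 monomer groups and the set labelled TCF3 dimer thus formed a high set that no other sample reached. Pxn rose in these by 0.69 ± 0.09 SE, 0.70 ± 0.09 SE and 0.71 ± 0.09 SE on the log2 scale. The call in the homodimer line (0.30 ± 0.09 SE, adjusted p 0.047) was lost in 20 of the alternatives run.

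Parva and Parvb encode the parvins, which bind ILK and actin. Parva rose in the set labelled TCF3 dimer (0.42 ± 0.11 SE, adjusted p 0.0062) and TCF12 dimer (0.52 ± 0.11 SE, adjusted p 0.0016), at 26.1, 22.6 and 26.4 and 31.6, 25.6 and 23.5 CPM against 19.9, 19.6 and 16.7 CPM. The TCF3 dimer call was lost without parental sample 3, and the TCF12 dimer call when those 2 groups were fitted alone. Its lower value in uninduced monomer samples (-0.34 ± 0.11 SE, adjusted p 0.045) passed with edgeR and was lost in 10 alternatives, DESeq2 among them. With 20 samples Parva was lower in induced monomer samples as well (-0.26 ± 0.10 SE, adjusted p 0.038). Parvb rose in the homodimer line, at 32.2, 31.6 and 29.6 CPM against 24.1, 21.5 and 22.5 CPM (0.46 ± 0.10 SE, adjusted p 0.004), and in uninduced monomer samples (0.34 ± 0.10 SE, adjusted p 0.02), a call lost in 6 alternatives. With 21 samples Ptk2 (FAK) passed in 1 of the 6, that of the set labelled TCF3 dimer (0.31 ± 0.08 SE, adjusted p 0.005), at 139, 131 and 128 CPM against 110.5, 103 and 107 CPM. With 20 samples it also passed as higher in the set labelled TCF12 dimer (0.31 ± 0.06 SE, adjusted p 5.9e-05) and as lower in uninduced monomer samples (-0.23 ± 0.05 SE, adjusted p 0.00079).

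Among the actin linkers Tns1 (chr1:73910231-74124449, minus strand), a tensin that binds beta tails and actin at long-lived adhesions, moved most. Parental samples stood at 14.7, 11.8 and 15.7 CPM and uninduced monomer samples at 13.7, 13.8 and 19.9 CPM. The induced monomer line was at 59.4, 51.4 and 56.1 CPM, the homodimer line at 78, 68.6 and 66.7 CPM and the set labelled TCF3 dimer at 93.3, 80.6 and 90.2 CPM. TCF4 dimer samples were at 75.8, 71 and 62.4 CPM and the set labelled TCF12 dimer at 47.2, 77.3 and 79 CPM. No sample of an induced line overlapped the parental or uninduced samples. Against parental samples Tns1 rose by 1.98 ± 0.18 SE (monomer), 2.33 ± 0.18 SE (homodimer), 2.64 ± 0.18 SE (labelled TCF3 dimer), 2.31 ± 0.18 SE (TCF4 dimer) and 2.27 ± 0.18 SE (labelled TCF12 dimer) on the log2 scale. The largest adjusted p of the 5 was 1.6e-07. In uninduced monomer samples the value was 0.18 ± 0.19 SE, adjusted p 0.6.

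Tns3, a tensin of the same family, showed another order. It was at 79.8, 86 and 87.7 CPM in the parental samples, 122, 131 and 133 CPM in the uninduced and 132, 122 and 134 CPM in induced monomer samples. The homodimer line was at 81.3, 75 and 73.3 CPM and the set labelled TCF3 dimer at 86.9, 99.7 and 107 CPM. TCF4 dimer samples stood at 64.6, 64.5 and 63.8 CPM and the set labelled TCF12 dimer at 28.7, 64.2 and 64.7 CPM, all below the parental samples. Tns3 rose in the uninduced (0.61 ± 0.18 SE, adjusted p 0.022) and induced monomer lines (0.61 ± 0.18 SE, adjusted p 0.02), both calls lost when any of the parental samples was left out. It fell in the set labelled TCF12 dimer (-0.68 ± 0.18 SE, adjusted p 0.011, and -0.39 ± 0.07 SE, adjusted p 9.3e-05 without sample 1), a call lost when those 2 groups were fitted alone. With 20 samples Tns3 also passed as lower in TCF4 dimer samples (-0.40 ± 0.06 SE, adjusted p 1.7e-05) and as higher in the set labelled TCF3 dimer (0.20 ± 0.06 SE, adjusted p 0.0087).

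Zyx, which encodes the adhesion protein zyxin (chr6:42349630-42360213, plus strand), was lower than in parental samples in every other group. Parental samples stood at 148, 149 and 146 CPM and uninduced monomer samples at 85, 82.5 and 78.4 CPM, the lowest group. The induced monomer line had 99.4, 91.7 and 92.7 CPM, the homodimer line 99.2, 99.2 and 95.8 CPM and the set labelled TCF3 dimer 110.4, 112 and 115 CPM. In TCF4 dimer samples it was at 114, 112 and 119.7 CPM and in the set labelled TCF12 dimer at 131, 125 and 123 CPM. No sample reached the parental range. The log2 fold change ran from -0.85 ± 0.06 SE in uninduced monomer samples to -0.23 ± 0.06 SE, adjusted p 0.0062 in the set labelled TCF12 dimer, the last lost with no filter on low counts and when those 2 groups were fitted alone.

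Actn1 (chr12:80167547-80260371, minus strand), an alpha-actinin that crosslinks actin at adhesions, was higher in the heterodimer sets. It stood at 225, 239 and 229 CPM in the parental samples, 239.8, 223 and 226 CPM in the uninduced and 284, 268 and 263 CPM in induced monomer samples, and 245, 224 and 232 CPM in the homodimer line. The set labelled TCF3 dimer had 378, 345 and 348 CPM, TCF4 dimer samples 352, 352 and 349 CPM and the set labelled TCF12 dimer 259, 376 and 384 CPM. With the exception of sample 1 labelled TCF12 dimer, every heterodimer sample was above every sample of the other 4 groups. Actn1 rose by 0.63 ± 0.10 SE, 0.60 ± 0.10 SE and 0.56 ± 0.10 SE on the log2 scale (largest adjusted p 0.00053), the last call lost when those 2 groups were fitted alone. With 20 samples a smaller rise in induced monomer samples passed as well (0.22 ± 0.05 SE, adjusted p 0.00048). Actn4, the other alpha-actinin of non-muscle cells, rose slightly in the uninduced monomer (0.24 ± 0.07 SE), induced monomer (0.27 ± 0.07 SE) and labelled TCF3 dimer sets (0.27 ± 0.07 SE). With library size alone as the scale the calls in both monomer groups were lost. With 20 samples Actn4 also passed as higher in the homodimer line (0.18 ± 0.05 SE) and TCF4 dimer samples (0.18 ± 0.05 SE).

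Vcl and Flna, linkers that carry load between adhesions and actin, did not pass in any of the 6 comparisons with 21 samples. Vcl stood at 63.7, 66 and 70.6 CPM in the parental samples, 44.5, 49.3 and 49.8 CPM in uninduced monomer samples, 55.8, 52.6 and 52.6 CPM in induced monomer samples and 81, 70.4 and 66.6 CPM in the homodimer line. No monomer sample of either kind reached the lowest parental sample. With the 20 samples that leave out sample 1 labelled TCF12 dimer, Vcl passed as lower in uninduced (-0.48 ± 0.08 SE, adjusted p 2.1e-05) and induced monomer samples (-0.33 ± 0.08 SE, adjusted p 0.0016). Flna, which crosslinks actin filaments, stood at 604, 679.6 and 676 CPM in parental, 486, 509.5 and 502 CPM in uninduced and 556, 499 and 537 CPM in induced monomer samples. With 20 samples Flna passed as lower in both (-0.39 ± 0.06 SE, adjusted p 2.9e-06 and -0.31 ± 0.06 SE, adjusted p 8.9e-05) and in the set labelled TCF3 dimer (-0.28 ± 0.06 SE, adjusted p 0.0002).

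**Figure D4:**
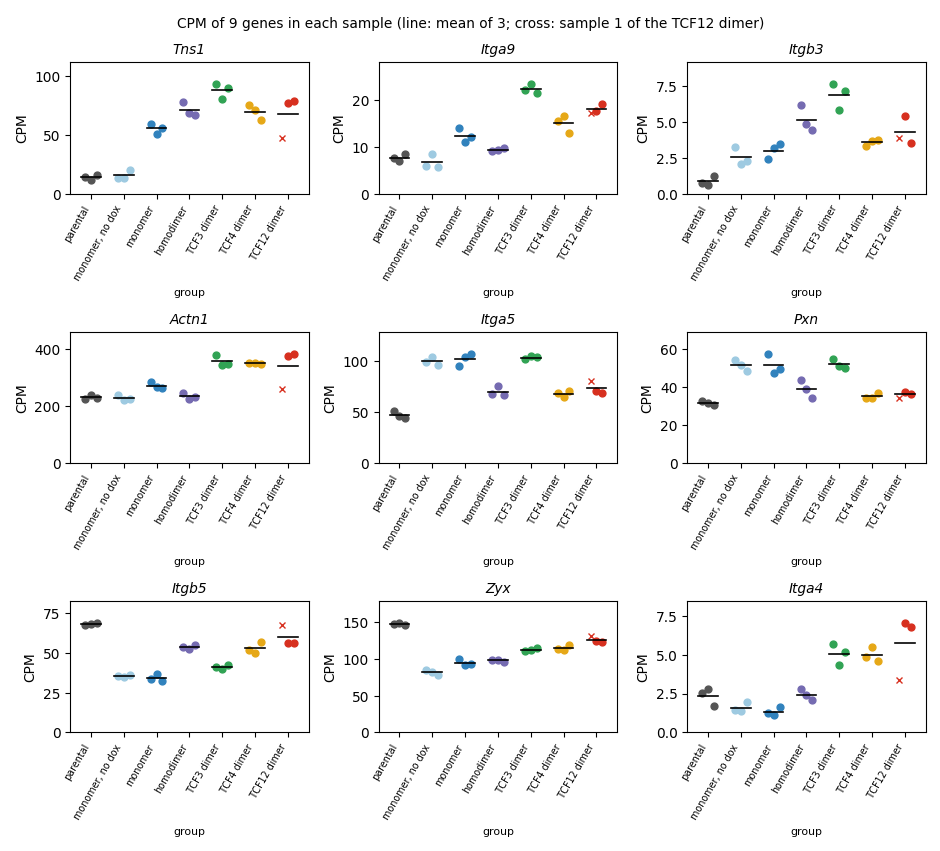
CPM (y axis, from 0) of 9 genes in each of the 21 samples, by group on the x axis, with the mean of 3 as a line and sample 1 labelled TCF12 dimer as a cross. Tns1 is low in the parental and uninduced monomer samples alone, Itga5 is lowest in the parental samples, and Zyx and Itgb5 are highest there apart from the cross in the Itgb5 plot.

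Induction within the monomer line compares the same line with and without doxycycline. Only 2 of the 32 members passed, both higher, where 2% of all genes passed (1.52% higher and 0.475% lower). These were Tns1 (1.80 ± 0.18 SE, adjusted p 4.4e-06) and Itga9 (0.86 ± 0.15 SE, adjusted p 0.0018), and the samples of the 2 groups did not overlap for either gene. Itga5, Itgb3 and Fermt2, which already stood above parental samples without doxycycline, had log2 fold changes on induction of 0.04 ± 0.08 SE, adjusted p 1, 0.29 ± 0.25 SE, adjusted p 0.91 and 0.10 ± 0.10 SE, adjusted p 0.96. Without sample 1 labelled TCF12 dimer, 5 members passed where 6.17% of all genes did (3.58% higher and 2.59% lower), with Actn1 (0.24 ± 0.05 SE) and Zyx (0.21 ± 0.05 SE) also higher and Itgb7 (-0.54 ± 0.16 SE) lower. The same number passed when only these 2 groups were fitted.

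Dimers were then set against the monomer, with the same 3 induced monomer samples in all 4 comparisons. In the homodimer line 4 members were higher and 4 lower (18.5% of all genes, 9.15% higher and 9.31% lower). Itgb3 (0.77 ± 0.22 SE) and Itgb5 (0.65 ± 0.08 SE) were the largest rises, and Tns3 (-0.76 ± 0.18 SE), Itgb4 (-0.71 ± 0.22 SE), Itga5 (-0.54 ± 0.08 SE) and Pxn (-0.40 ± 0.09 SE) fell. The other 2 rises were the parvins, Parva (0.33 ± 0.11 SE) and Parvb (0.32 ± 0.10 SE). The Parva call was lost in 15 alternatives, DESeq2 among them, and the Parvb call in 4. The count was 10 and 9 without sample 1 labelled TCF12 dimer (33.3% of all genes, 17.3% higher and 16% lower), 2 and 3 without induced monomer sample 1, and 1 and 3 without homodimer sample 1; both of the last removed the Itgb3 call. The Itgb4 call was lost when any of the 6 samples compared was left out.

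In the set labelled TCF3 dimer 13 members were higher and 2 lower than in induced monomer samples (22.1% of all genes, 12.7% higher and 9.36% lower). Without sample 1 labelled TCF12 dimer the count was 14 and 5 (40.9% of all genes, 20.3% higher and 20.6% lower). Itga4 (1.92 ± 0.28 SE), Itga1 (1.34 ± 0.25 SE), Itgb3 (1.19 ± 0.21 SE), Itga8 (1.15 ± 0.30 SE), Itga9 (0.85 ± 0.13 SE) and Itgav (0.74 ± 0.14 SE) led the rises. Fermt1 (-0.56 ± 0.16 SE) and Itgb4 (-0.61 ± 0.22 SE) fell, both calls lost with library size alone as the scale, where 13 were higher and 0 lower. The Itgb4 call was lost in 18 alternatives, among them the removal of any sample compared. That of Fermt1 was also lost without induced monomer sample 2 and without sample 1 labelled TCF3 dimer. In TCF4 dimer samples 7 were higher and 4 lower (27.4% of all genes, 14.5% higher and 13% lower), with Itga4 (1.89 ± 0.28 SE) and Itga1 (1.10 ± 0.25 SE) highest and Tns3 (-1.01 ± 0.18 SE) lowest. Without sample 1 labelled TCF12 dimer that count was 13 and 8 (45.5% of all genes, 24% higher and 21.5% lower).

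In the set labelled TCF12 dimer 9 members were higher and 7 lower than in induced monomer samples (33.5% of all genes, 18.1% higher and 15.5% lower). Itga4 (2.12 ± 0.28 SE), Itga1 (0.94 ± 0.26 SE), Itgb5 (0.81 ± 0.08 SE) and Parva (0.77 ± 0.11 SE) led the rises. Tns3 (-1.29 ± 0.18 SE), Itgb4 (-0.97 ± 0.22 SE), Itga3 (-0.83 ± 0.14 SE) and Itgb7 (-0.76 ± 0.20 SE) led the falls. Without sample 1 the count was 16 and 8 (42.4% of all genes, 22.3% higher and 20.1% lower), with Itga4 at 2.37 ± 0.23 SE. Fitted on these 2 groups alone, 5 were higher and 5 lower.

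The mean of the heterodimer groups was compared with the homodimer. Each is a separate line without uninduced samples, so the E-protein partner and the line cannot be told apart here. Of the 32 members, 8 were higher and 2 lower (14% of all genes, 7.99% higher and 6.04% lower). The rises were Itga1 (1.37 ± 0.22 SE, adjusted p 0.00024), Itga4 (1.12 ± 0.21 SE, adjusted p 0.00098), Itga9 (0.95 ± 0.11 SE, adjusted p 7.8e-06), Itga8 (0.91 ± 0.26 SE, adjusted p 0.025) and Actn1 (0.58 ± 0.09 SE, adjusted p 9.9e-05), with smaller ones in Itgav (0.48 ± 0.11 SE), Zyx (0.26 ± 0.05 SE) and Ptk2 (0.23 ± 0.06 SE). These include 4 of the 5 subunits placed in the RGD, alpha4 and alpha9 role, which was drawn up with earlier results known. The other, Itga5, did not pass (0.19 ± 0.06 SE, adjusted p 0.052), and did with 20 samples (0.16 ± 0.05 SE, adjusted p 0.016). Parvb fell (-0.46 ± 0.08 SE), as did Itga6 (-0.91 ± 0.26 SE, adjusted p 0.023), whose value was -0.76 ± 0.06 SE without sample 1 labelled TCF12 dimer. Without that sample 13 members were higher and 5 lower, where 28.9% of all genes passed (14.7% higher and 14.3% lower). The Itga6 call was lost when any of the homodimer samples was left out, the Itga8 call without homodimer sample 1, and the Itgav call without homodimer sample 2. The Ptk2 call was lost in 6 alternatives, among them the removal of any homodimer sample. Fitting only the groups compared ended the calls of Itga6, Itga8 and Ptk2.

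The heterodimer sets also differed among themselves in 11 of the 32 members (2 degrees of freedom, 26% of all genes). Itga5 (adjusted p 1.5e-05), Pxn (0.00014) and Itgb5 (0.0002) had the smallest p. For Itga5 and Pxn the set labelled TCF3 dimer was above all samples of the other 2 sets, and for Itgb5 it was below them. Itgb3, Itga9 and Itgav were also highest in the set labelled TCF3 dimer, at means of 6.85 ± 0.924, 22.4 ± 0.94 and 71.1 ± 3.41 CPM (SD, n = 3). Without sample 1 labelled TCF12 dimer 20 members differed (40.1% of all genes), without sample 3 of that set 18, and 5 when only these 3 groups were fitted.

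Other genes of adhesion and its matrix, read from lists of named genes, are given here as counts. The shares of all tested genes that passed in these comparisons ranged, with 21 samples, from 4.81% (homodimer) to 16.3% (labelled TCF3 dimer) higher and from 4.02% to 12% lower in the same 2 groups. Of 43 tested adhesion complex genes outside the group, the number higher and lower against parental samples was 4 and 6 in uninduced monomer samples, 7 and 6 in induced monomer samples and 4 and 1 in the homodimer line. It was 8 and 5 in the set labelled TCF3 dimer, 7 and 5 in TCF4 dimer samples and 9 and 5 in the set labelled TCF12 dimer. With 20 samples these counts were 5 and 9, 9 and 9, 8 and 4, 11 and 8, 9 and 8, and 11 and 7, listed as above. The shares of all tested genes then ranged from 10.6% (homodimer) to 24% (labelled TCF3 dimer) higher. They ranged from 9.84% to 22.4% lower in the same 2 groups, so the larger counts are not read as a trait of the list. Kank4, a talin-binding gene, was the highest in each of the 5 induced lines, with log2 fold changes of 1.04, 2.75, 3.96, 2.57 and 3.57 for monomer, homodimer and the sets labelled TCF3, TCF4 and TCF12 dimer. Flnc, a filamin, and Fblim1, which links filamin to kindlin, rose on induction within the monomer line (1.04 and 1.03). There 4 genes of this list were higher and 0 lower (1.52% higher and 0.475% lower of all genes). Of the 7 remaining integrin subunit genes 3 could be tested. With 20 samples 1 of them, Itgal of leukocytes, passed against parental samples, as higher in the set labelled TCF3 dimer.

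Of 30 tested matrix ligands of integrins, 14 were higher and 2 lower in uninduced monomer samples (10.5% higher and 9.43% lower of all genes), 13 and 2 in induced monomer samples, 21 and 2 in the set labelled TCF3 dimer (16.3% higher and 12% lower of all genes), and 4 and 6 in the homodimer line. In TCF4 dimer samples 7 were higher and 7 lower, and in the set labelled TCF12 dimer 9 and 11. With 20 samples the counts were 16 and 2, 17 and 2, 21 and 4, 5 and 9, 8 and 8, and 9 and 11 in these 6 comparisons. The 20-sample shares of all genes are those given above for the adhesion complex list. Tgfbi, a secreted ligand of several integrins, stood at a mean of 1.09 CPM in parental samples and 4.79 CPM in uninduced monomer samples. It stood at 19 CPM in induced monomer samples and 39.5 CPM in the set labelled TCF3 dimer, and it rose on induction within the monomer line (1.99 on the log2 scale), as did the basement membrane gene Nid1 (1.08). The last list held 26 tested genes of actomyosin or known to respond to SRF or YAP. In uninduced monomer samples 0 were higher and 11 lower (10.5% higher and 9.43% lower of all genes). In induced monomer samples 0 were higher and 10 lower (10.8% higher and 9.22% lower of all genes). With 20 samples these counts were 3 and 16 (18.7% and 18.1% of all genes), and 3 and 15 (18.1% and 17.1% of all genes). Counts of this list for the homodimer, the TCF3 label and the TCF4 dimer are not given here. In the set labelled TCF12 dimer 7 were higher and 1 lower (15.5% higher and 11.5% lower of all genes), and 6 and 2 without sample 1. The summed level of the list was 6727 to 8883 CPM in that set, 6727 to 7001 CPM without sample 1 and 6526 to 6720 CPM in parental samples.

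Markers of other cell types moved between the groups as well. In RNA of whole embryoid bodies, fewer cells of a type and less RNA per cell cannot be told apart. The 9 markers of primitive streak and nascent mesoderm summed to 214 to 252 CPM in the parental samples, and to 34.9 to 42.4 CPM in the uninduced and 28.2 to 29.9 CPM in the induced monomer samples. The sum was 32.8 to 37.6 CPM in the homodimer line, 16.7 to 21.6 CPM in the set labelled TCF3 dimer, 28.3 to 29.9 CPM in TCF4 dimer samples and 21.7 to 30.5 CPM in the set labelled TCF12 dimer. All 7 tested markers of this list were lower than in parental samples in each of the 6 comparisons, and none of the 9 was at 0 throughout. Itgb3, Itga5, Fermt2 and Zyx also passed in all 6 comparisons, and the part of these cells in those results was not tested.

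The summed level of 11 endoderm markers was 344 to 382 CPM in the parental samples, 1329 to 1673 CPM in the uninduced and 1310 to 1457 CPM in induced monomer samples, and 629 to 902 CPM in the set labelled TCF3 dimer. It was 217 to 260.3 CPM in the homodimer line, 156 to 165 CPM in TCF4 dimer samples and 156 to 180.3 CPM in the set labelled TCF12 dimer. The 3 groups with the highest Itga5 and Pxn, the 2 monomer groups and the set labelled TCF3 dimer, were thus the 3 with the most endoderm marker RNA. In each of them 7 of the 10 tested endoderm markers were higher than in parental samples, and none of the 11 was at 0 throughout. The part of these cells in the Itga5 and Pxn results was not tested.

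The summed level of 10 endothelial and blood progenitor markers was 32.8 to 36.1 CPM in the parental samples and 47.1 to 47.3 CPM in uninduced monomer samples. It was 118 to 120.4 CPM in induced monomer samples, 136 to 143 CPM in the homodimer line, 172 to 215 CPM in the set labelled TCF3 dimer, 85.2 to 94.4 CPM in TCF4 dimer samples and 169 to 206 CPM in the set labelled TCF12 dimer. In the induced lines most of it was Cd34, at means from 58.6 CPM (TCF4 dimer) to 146 CPM (labelled TCF12 dimer) against 5.12 CPM in parental and 5.85 CPM in uninduced monomer samples. None of the 10 was at 0 throughout. Against parental samples 4 of the 10 passed as higher in induced monomer samples, 2 in the homodimer line, 8 in the set labelled TCF3 dimer, 2 in TCF4 dimer samples and 4 in the set labelled TCF12 dimer. Tns1 and Itgb3 were above parental samples in the same induced lines, and Itgb3 was so in uninduced monomer samples too (1.46 ± 0.31 SE). The part of these cells in their rise was not tested. The 8 lateral and extraembryonic mesoderm markers summed to 24.6 to 27.6 CPM in the parental, 80.6 to 94.6 CPM in the uninduced and 80.6 to 88.4 CPM in the induced monomer samples and 19.7 to 20.7 CPM in the homodimer line. They summed to 89.5 to 105 CPM in the set labelled TCF3 dimer, 30.6 to 37.5 CPM in TCF4 dimer samples and 44.4 to 63.3 CPM in the set labelled TCF12 dimer, and none was at 0 throughout. With 21 samples 7 of 8 were higher in the mean of the heterodimer groups than in the homodimer line, beside the rises of Itga1, Itga4, Itga8, Itga9 and Actn1. Itga1, Itga4 and Itga8 were low in both monomer groups, where this sum was high, and Itga4 and Actn1 were raised in TCF4 dimer samples, where the sum was lower than in either monomer group. The part of these cells in those rises was not tested.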

How the data were processed

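Poly(A) libraries of 21 samples were made with a TruSeq mRNA kit, per the labels' protocols. The authors deposited unscaled counts for each symbol, and the submitters' processing notes name FastQC, TopHat2, HTSeq and the builds mm10 and GRCm38. The annotation and the strand setting are not given in the sources used here. Dates had replaced 25 symbols in the files of 18 samples, so files were joined by position. Tests used edgeR 4.0.16 (quasi-likelihood F-test, R 4.3.3, limma 3.58.1) in 1 fit of all 21 samples with TMM factors. A default filterByExpr filter (count 10, total 15) kept 14311 genes. P-values were adjusted over these by Benjamini-Hochberg, and a gene passes under 0.05. SE derives from the F statistic. CPM use the library total times the TMM factor, and RPKM the exon length of GENCODE M21, which matched 37 of 37 members. Members, lists and roles were chosen with earlier results of these data known. Genes were named by role, largest passing log2 fold change first, and from other lists the 2 highest and 2 lowest passing genes. Alternatives were DESeq2 1.42.0, RLE factors, library size alone, no filter, a CPM filter, only the groups compared, the replicate number as a block and each sample left out. The test was also run on simulated counts for the parental and TCF4 dimer groups alone. These had a constant spread and no sample that stood apart, unlike the data.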

Additional observations from a re-analysis of the deposited data

How the results depend on the processing

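Of 137 calls of members in the 12 comparisons with a direction, 45 were lost in at least 1 alternative. Fitting only the groups compared changed the number of members passing from 9 to 16 (TCF4 dimer against parental), 11 to 4 (labelled TCF12 dimer against parental), 2 to 5 (monomer induction), 8 to 19 (homodimer against monomer), 11 to 21 (TCF4 dimer against monomer), 16 to 10 (labelled TCF12 dimer against monomer) and 11 to 5 (among heterodimers). These are fits with fewer samples and, except where the libraries labelled TCF12 dimer are compared, without their sample 1. With 1 sample left out at a time the number passing ranged from 22 to 28 over the 7 groups. Against the parental line the ranges were 9 to 20 (uninduced monomer), 11 to 21 (induced monomer), 8 to 12 (homodimer), 15 to 19, 8 to 16 and 11 to 17 (labelled TCF3, TCF4 and TCF12 dimer). They were 2 to 5 for monomer induction, and against the monomer 4 to 19 (homodimer), 13 to 19, 9 to 21 and 15 to 24 (labelled TCF3, TCF4 and TCF12 dimer). For heterodimers against homodimer the range was 7 to 18 and among heterodimers 10 to 20. Each upper end came without sample 1 labelled TCF12 dimer, where the share of all tested genes that passed rose as well. For homodimer against monomer that share went from 18.5% to 33.3%. Shares in the other fits are not given here, so the shifts in number are not read as a trait of the members. Among the values that did not pass, Tns1 in the uninduced monomer line against parental changed sign without uninduced sample 3 (log2 fold change from -0.045 there to 0.27 without uninduced sample 2), and Itga5 on monomer induction did without induced sample 3 (from -0.0037 to 0.080 without induced sample 1). In both cases the cause was not tested. With DESeq2, 145 of 150 values kept their direction and side of the threshold, and the CPM filter kept all 150. Replicate numbers are shared by all groups. Deviations of same-numbered samples had a mean r of 0.0214 over 63 pairs (range -0.222 to 0.344). Those of samples with different numbers had a mean r of -0.0102 over 126 pairs (range -0.36 to 0.296). Whether the numbers mark a shared culture or batch was not tested. With the replicate block 150 of 150 values were the same. Genes near 3 counts per library, such as Itga2 and Itgb6, could not be compared at this depth.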
